A study of Mus musculus with 9 samples.

Results

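Transcripts of 10 genes for adaptors and inhibitors of tyrosine kinase, RAS and PI3K signalling were measured by bulk RNA-seq in mouse megakaryocyte-erythroid progenitors (MEPs). The genes were Lat, Lcp2 and Grap2 (the LAT scaffold complex), Dok1, Dok2 and Dok3 (the DOK family), Sla and Sla2 (the SLAP adaptors), and the inhibitors Rasal3 and Pik3ip1. They were found by gene symbol among the 35275 rows of the count table. All 10 were counted and passed the filter on low counts in every comparison. They were chosen with their levels in these libraries already known, so their levels and differences are descriptions, without a test.

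MEPs were Lin-ckit+CD34-FcγRII/IIIlo cells from the bone marrow of wild-type C57BL/6 mice aged 6 to 12 wk, and each library was made from 25000 sorted cells. HS3A8 is a single chain variable fragment (scFv) antibody that binds a modification pattern of heparan sulfate, a sulfated glycan of the cell surface. Of the 9 libraries, 3 were HS3A8-high MEPs (the 50% that bound most HS3A8), 3 were HS3A8-low MEPs (the 50% that bound least) and 3 were MPB49 control MEPs. MPB49 is an scFv that does not appear to bind heparan sulfate, and these mock-sorted cells stand for total MEPs. Each library totalled 11781637 to 15850037 counts, so a count of 0 allows up to 0.189 to 0.255 CPM (counts relative to the library total), which covers counting error only. The paper's heatmap legend describes the replicates of the sorted fractions as individual mice and does not name the control. The labels do not say which library came from which mouse. The p-values measure the spread between these libraries, which for the sorted fractions includes differences between mice and may also be partly technical. The 12 MEP and erythroid markers summed to 15118 to 15750 CPM in HS3A8-high, 11646 to 12801 CPM in HS3A8-low and 13650 to 14715 CPM in the control. Car1 and Car2 made up most of each sum. Replicate 3 of both sorted fractions also held granulocyte and monocyte transcripts (1950 and 4996 CPM over 12 markers).

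LAT is a membrane scaffold that SYK family kinases phosphorylate below receptors of T cells, mast cells and platelets. Phosphorylated LAT gathers SLP-76 (the protein of Lcp2) through GADS (the protein of Grap2), together with phospholipase C gamma. In megakaryocytes and platelets this complex carries the signal of the collagen receptor. The DOK and SLAP adaptors, RASAL3 and PIK3IP1 act mainly as brakes. DOK1 and DOK2 recruit a RAS GTPase-activating protein, and SLAP proteins bring the ubiquitin ligase CBL to kinases and receptors. RASAL3 is itself a RAS GTPase-activating protein, and PIK3IP1 inhibits the catalytic subunit of PI3K.

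Promoter sequences are shown because most of these genes differed in the same direction between the sorted fractions. RefSeq promoters (GRCm38.p6, 250 bases before to 50 after the start) were matched for 7 of the 10 genes, which leaves Dok1, Dok2 and Sla. Both strands were searched for short letter runs that 3 families of blood transcription factors recognise: AGATAA for the GATA family, GGAAGT for the ETS family and TGTGGT for the RUNX family. The 4 promoters that hold a match are printed 5′ to 3′ on the strand of the gene with each match in capitals. They are Lat at chr7:126369519-126369818 (minus strand), Lcp2 at chr11:34046678-34046977 (plus strand), Sla2 at chr2:156887172-156887471 (minus strand) and Dok3 at chr13:55528489-55528788 (minus strand).
Lat: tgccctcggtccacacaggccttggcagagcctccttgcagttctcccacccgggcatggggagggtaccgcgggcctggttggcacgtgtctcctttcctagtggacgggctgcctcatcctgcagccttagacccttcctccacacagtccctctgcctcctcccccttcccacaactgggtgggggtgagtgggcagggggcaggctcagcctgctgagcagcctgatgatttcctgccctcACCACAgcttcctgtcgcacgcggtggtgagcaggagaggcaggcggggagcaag
Lcp2: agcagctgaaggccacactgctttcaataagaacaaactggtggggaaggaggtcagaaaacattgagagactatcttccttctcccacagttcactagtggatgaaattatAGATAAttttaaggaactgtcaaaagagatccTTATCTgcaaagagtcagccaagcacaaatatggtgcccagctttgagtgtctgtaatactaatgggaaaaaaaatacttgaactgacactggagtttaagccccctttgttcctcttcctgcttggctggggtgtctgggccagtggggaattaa
Sla2: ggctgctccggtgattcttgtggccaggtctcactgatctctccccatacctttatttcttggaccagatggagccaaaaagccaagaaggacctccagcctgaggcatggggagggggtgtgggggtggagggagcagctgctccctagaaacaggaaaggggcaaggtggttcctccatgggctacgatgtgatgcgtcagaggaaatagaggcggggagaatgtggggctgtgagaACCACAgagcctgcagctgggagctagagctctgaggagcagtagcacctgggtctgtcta
Dok3: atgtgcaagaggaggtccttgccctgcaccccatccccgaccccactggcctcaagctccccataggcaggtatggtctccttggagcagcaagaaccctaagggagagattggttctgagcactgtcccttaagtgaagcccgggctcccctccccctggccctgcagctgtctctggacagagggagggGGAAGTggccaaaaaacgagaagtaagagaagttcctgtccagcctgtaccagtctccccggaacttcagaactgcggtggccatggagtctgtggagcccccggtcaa
The GATA letters were in 1 of the 7 promoters, that of Lcp2, which holds 2 matches, and in 11.2% of the 32851 promoters of the table. RUNX letters were in 2 of the 7, Lat and Sla2, and in 16.8% of all. ETS letters were in 1 of the 7, Dok3, and in 23.8% of all. The promoters of Grap2, Rasal3 and Pik3ip1 held none of these letters in this window. A match is a description of the sequence and not a binding site.

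Most of the 10 transcripts were more abundant in HS3A8-low than in HS3A8-high MEPs. The summed level of all 10 was 153.2 CPM ± 18.4 (SD, n = 3) in HS3A8-high, 247.8 CPM ± 27.7 in the MPB49 control and 402.0 CPM ± 15.2 in HS3A8-low. Dok1 and Rasal3, at means of 65.6 and 52.9 CPM, made up most of the sum in HS3A8-high. Group means were highest in HS3A8-low for 9 genes and lowest in HS3A8-high for 8. Dok1 was the exception at the top, with its highest mean in HS3A8-high and all 3 groups overlapping. In bulk RNA, fewer cells of a type and less RNA per cell cannot be told apart.

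**Figure D1:**
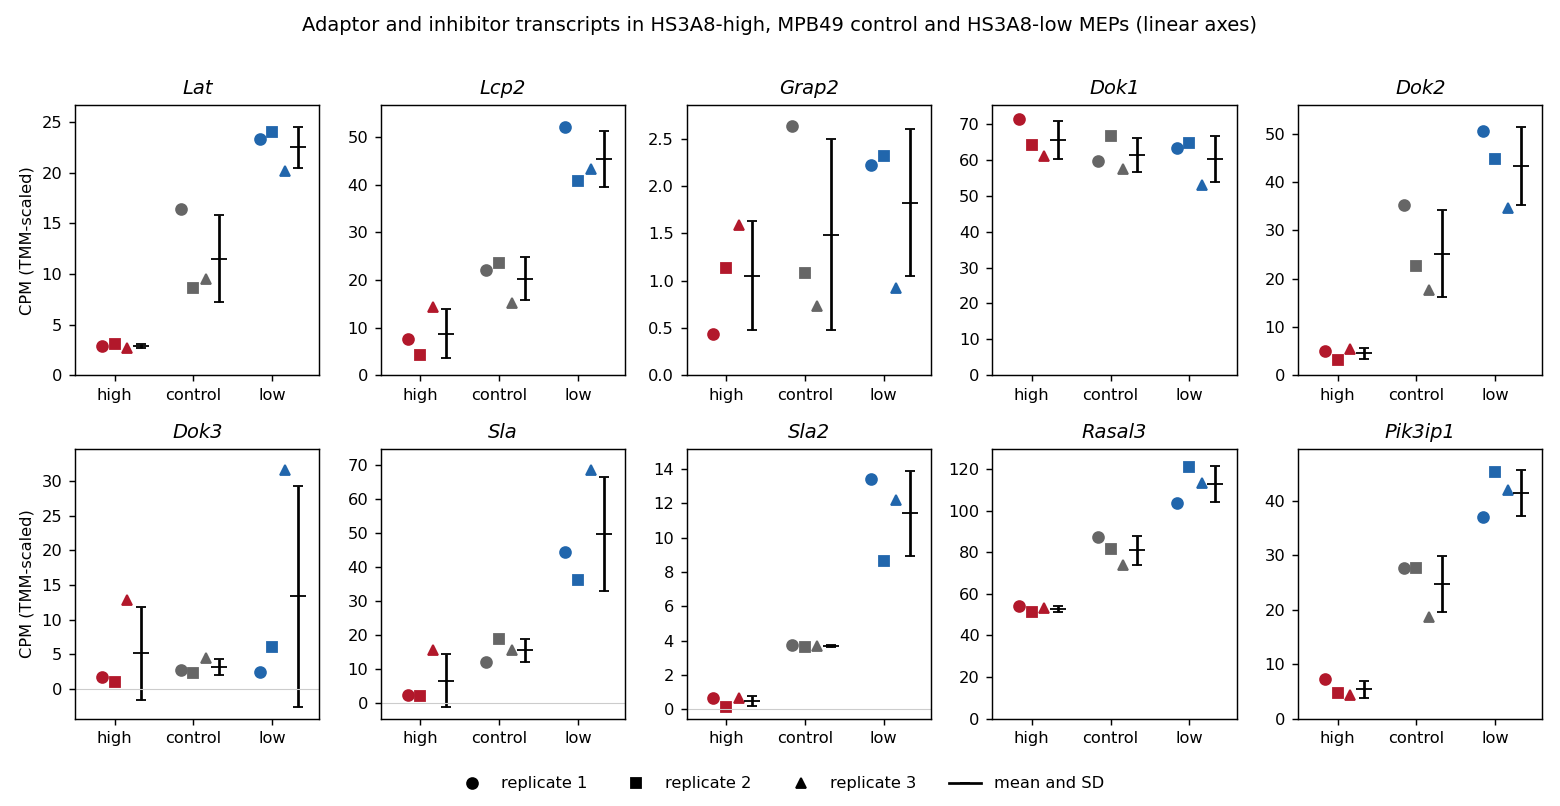
Level of each of the 10 transcripts in CPM scaled by TMM over the 9 libraries (linear y axes with a different range in each panel) in HS3A8-high, MPB49 control and HS3A8-low MEPs. Points are libraries, their shape is the replicate number, and the bar is the mean with the SD. Lat, Lcp2, Sla2, Rasal3 and Pik3ip1 step up from HS3A8-high through the control to HS3A8-low without overlap, whereas Dok1 is level and replicate 3 stands high for Dok3 and Sla.

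Lat (chr7:126363824-126369570, minus strand, GRCm38), the scaffold itself, was measured at 2.89, 3.08 and 2.65 CPM in the HS3A8-high libraries of replicates 1, 2 and 3, in that order. In the HS3A8-low libraries it was at 23.3, 24.0 and 20.2 CPM, and in the control at 16.5, 8.61 and 9.46 CPM. The 3 groups did not overlap, and the HS3A8-high libraries lay closer together than those of the other groups. On the log2 scale the difference of HS3A8-high over HS3A8-low was -2.99 ± 0.196 (SE). Within the 3 replicate numbers the HS3A8-low level was 7.62 to 8.06 times the HS3A8-high level, and the SD of these log2 ratios, 0.0409, was the smallest of the 10 genes.

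Lcp2 (chr11:34046920-34092295, plus strand), which encodes SLP-76, was at 7.66, 4.14 and 14.3 CPM in HS3A8-high. It was at 52.1, 40.8 and 43.4 CPM in HS3A8-low and at 22.0, 23.7 and 15.2 CPM in the control. The groups did not overlap, although HS3A8-high replicate 3 came within 1 CPM of the lowest control library. The log2 difference of HS3A8-high over HS3A8-low was -2.41 ± 0.417 and was -2.98 without replicate 3 of both groups. Grap2 (chr15:80572594-80652854, plus strand), which encodes GADS, was scarce, with 7 to 38 counts a library. Its levels were 0.439, 1.13 and 1.59 CPM in HS3A8-high, 2.22, 2.32 and 0.924 CPM in HS3A8-low, and 2.63, 1.08 and 0.734 CPM in the control. All 3 groups of Grap2 overlapped, the log2 difference was -0.83 ± 0.595, and HS3A8-low was the higher fraction in 2 of the 3 pairs. Per kilobase of exon, the mean level over the 9 libraries was 4.44 CPM for Lat and 5.56 CPM for Lcp2 against 0.233 CPM for Grap2.

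The DOK genes differed from each other. Dok2 (chr14:70766036-70778495, plus strand) was at 4.96, 3.23 and 5.36 CPM in HS3A8-high and at 50.6, 44.7 and 34.7 CPM in HS3A8-low. In the control it was at 35.3, 22.7 and 17.6 CPM, so the control overlapped HS3A8-low and not HS3A8-high. Its log2 difference of HS3A8-high over HS3A8-low was -3.28 ± 0.258. Dok1 (chr6:83030934-83033471, minus strand), its closest relative among the 3, was at 71.4, 64.2 and 61.0 CPM in HS3A8-high, 63.4, 64.7 and 52.9 CPM in HS3A8-low and 59.7, 66.7 and 57.5 CPM in the control. The log2 difference of Dok1 was 0.09 ± 0.123, smaller than its SE, and its ratio of HS3A8-low to HS3A8-high was 0.867 to 1.01 within pairs. Per kilobase of exon Dok1 was the most abundant of the 10, at a mean of 31.6 CPM, and Dok2 was at 8.39 CPM.

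Dok3 (chr13:55523231-55529296, minus strand), which restrains B cell receptor and Toll-like receptor signals, was highest in replicate 3 of every group. It was at 1.63, 0.903 and 12.9 CPM in HS3A8-high, 2.34, 6.04 and 31.7 CPM in HS3A8-low, and 2.63, 2.23 and 4.40 CPM in the control. The groups overlapped, although the HS3A8-low level was 1.43 to 6.70 times the HS3A8-high level within pairs. The log2 difference was -1.39 ± 1.215, with -1.48 under the replicate block and -1.70 without replicate 3 of both groups. Left out singly, HS3A8-low replicate 3 gave 0.27 and HS3A8-high replicate 3 gave -3.38, so the unpaired value moved with either of these libraries.

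Of the SLAP adaptors, Sla2 (chr2:156872457-156887192, minus strand) had the largest log2 difference among the 10 genes, -4.49 ± 0.523. It was at 0.690, 0.150 and 0.661 CPM in HS3A8-high, from 11, 2 and 10 counts. In HS3A8-low it was at 13.5, 8.64 and 12.2 CPM, and the 3 control libraries lay close together at 3.76, 3.63 and 3.67 CPM. No group overlapped another. Within pairs the HS3A8-low level was 18.4 to 57.5 times the HS3A8-high level, and the highest of these ratios has a 95% interval of 15.6 to 479.7 from the 2 counts behind it (exact, counting error only). Rab5if, a gene on the other strand, overlaps 23.6% of the exon bases of Sla2, and was at 33.4 to 47.9 CPM in the 6 sorted libraries without separating them.

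Sla (chr15:66780819-66831829, minus strand), which encodes SLAP, was at 2.39, 1.96 and 15.5 CPM in HS3A8-high. It was at 44.4, 36.1 and 68.5 CPM in HS3A8-low and at 12.1, 18.9 and 15.6 CPM in the control. The sorted fractions did not overlap, whereas HS3A8-high replicate 3 lay within the range of the control. The log2 difference was -2.93 ± 0.790, and -4.21 without replicate 3 of both groups. Within pairs the ratio of HS3A8-low to HS3A8-high was 18.6 and 18.5 in replicates 1 and 2 and 4.41 in replicate 3.

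**Figure D2:**
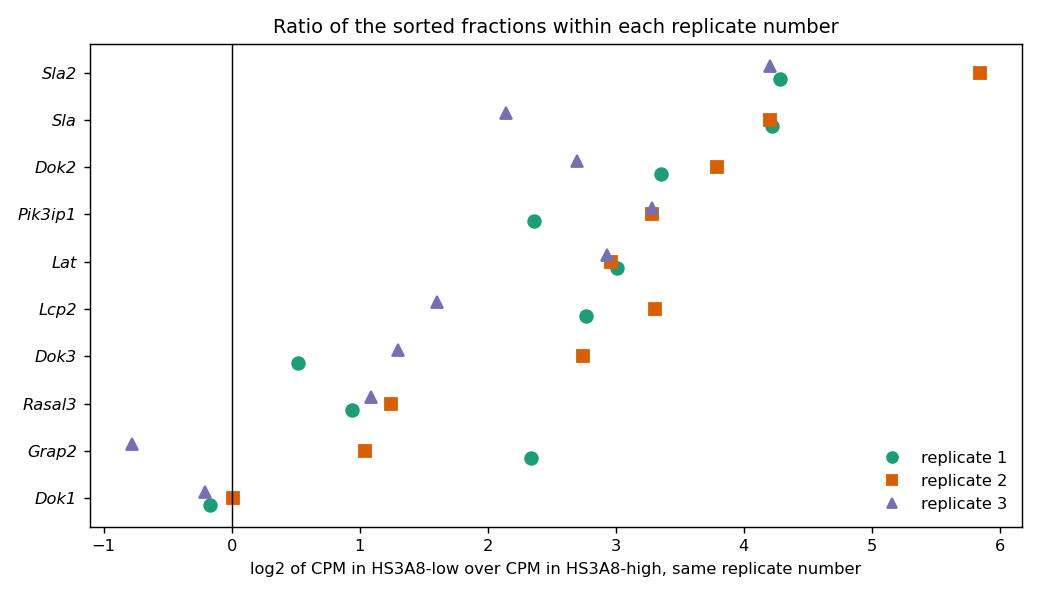
Ratio of HS3A8-low to HS3A8-high CPM within each replicate number on a log2 scale (x axis) for each gene (y axis), with a symbol per replicate number. The 3 ratios of Lat nearly coincide near 3, those of Lcp2, Dok2 and Sla are lowest in replicate 3, and those of Dok1 lie at or just below 0.

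Both inhibitors were also more abundant in HS3A8-low. Rasal3 (chr17:32390659-32403583, minus strand) was at 54.2, 51.2 and 53.2 CPM in HS3A8-high, 103.9, 121.2 and 113.3 CPM in HS3A8-low, and 87.6, 81.7 and 73.8 CPM in the control. Its 3 groups did not overlap, and its log2 difference of -1.12 ± 0.0940 was the smallest of those without overlap and had the smallest SE. Pik3ip1 (chr11:3330401-3342971, plus strand) was at 7.22, 4.66 and 4.30 CPM in HS3A8-high, 37.0, 45.3 and 41.9 CPM in HS3A8-low, and 27.6, 27.7 and 18.7 CPM in the control. Again no group overlapped another, and the log2 difference was -2.96 ± 0.244. Per kilobase of exon the mean level was 16.8 CPM for Rasal3 and 5.57 CPM for Pik3ip1.

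Of the 10 members, 6 passed an adjusted p of 0.05 in the edgeR fit of HS3A8-high with HS3A8-low, all higher in HS3A8-low. They were Lat, Lcp2, Dok2, Sla2, Rasal3 and Pik3ip1. Of all 11791 genes tested, 3.21% passed with higher levels in HS3A8-low and 3.82% in either direction. Blocking on the replicate number, edgeR called 7 of 10, adding Sla, beside 11.6% of all genes (8.27% higher in HS3A8-low). The groups did not overlap for 7 of the 10, beside 14.5% of all genes with every HS3A8-low library above every HS3A8-high library. The median log2 difference of the 10 was -2.67 and that of all genes tested -0.03. These counts describe genes that were picked with this contrast in view and support nothing beyond it.

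The calls depended on which libraries entered the fit. Without HS3A8-low replicate 2, 0 of the 10 and 0 of all genes passed, although 1900 genes had an unadjusted p under 0.05, and the 6 log2 differences kept their direction. Lcp2 kept its call only without HS3A8-high replicate 3, and lost it with any other of the 6 libraries left out. Sla2 lost its call without HS3A8-high replicate 1, HS3A8-low replicate 1 or HS3A8-low replicate 2. Sla passed without HS3A8-high replicate 3. Lat, Dok2, Rasal3 and Pik3ip1 lost theirs only without HS3A8-low replicate 2, with log2 differences from -3.42 to -1.04 over all 6 omissions.

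Transcripts of cells outside the MEP gate moved with several of these results. The 12 granulocyte and monocyte markers summed to 1950 CPM in HS3A8-high replicate 3 and 4996 CPM in HS3A8-low replicate 3, where Mpo, Lyz2 and Elane carried the sum. In the other sorted libraries the sum was 9.70 and 19.1 CPM (HS3A8-high) and 117.1 and 251.2 CPM (HS3A8-low), and in the control 98.8 to 192.1 CPM. Dok3, Sla and, in HS3A8-high, Lcp2 were highest in those replicate 3 libraries, whereas Lat and Pik3ip1 were not. Without replicate 3 of both groups 7 of 10 genes passed, with a median log2 difference of -2.88, while the count over all genes went from 451 to 748 (715 higher in HS3A8-low). Cd34, Fcgr3 and the other 2 genes outside the gate summed to 1.13 to 36.8 CPM in HS3A8-high, 33.5 to 139.2 CPM in HS3A8-low and 20.4 to 46.9 CPM in the control. Their part in the result was not tested.

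**Figure D3:**
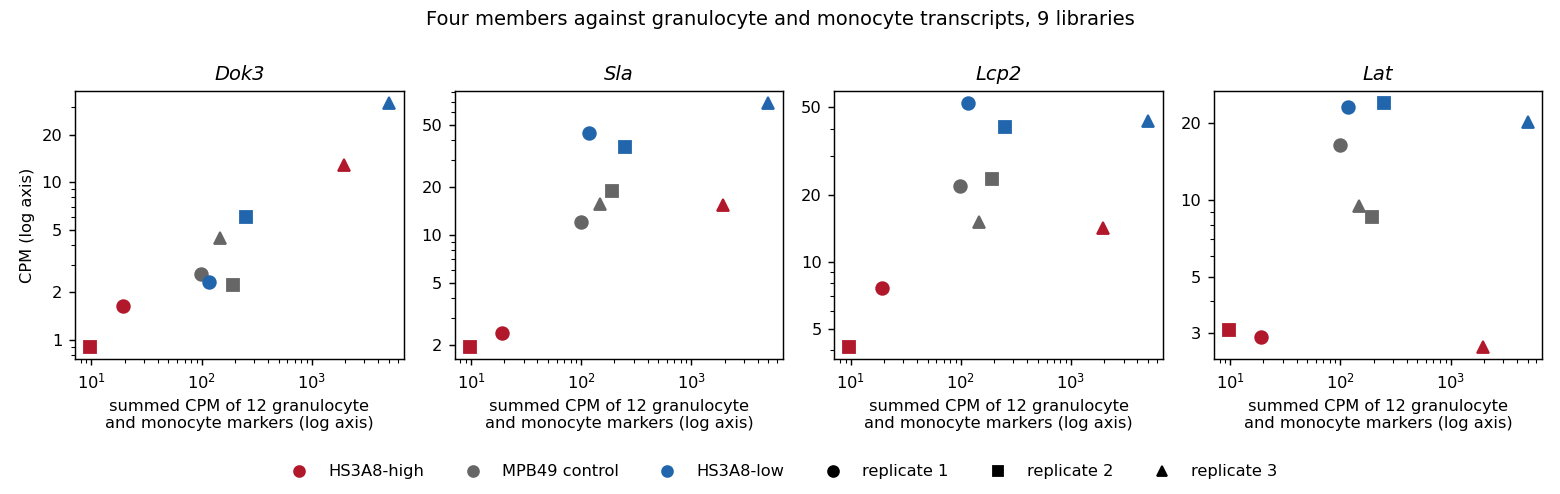
CPM of Dok3, Sla, Lcp2 and Lat (y axes, log scale) against the summed CPM of 12 granulocyte and monocyte markers (x axis, log scale) in the 9 libraries, coloured by group with the replicate number as the symbol. Both replicate 3 sorted libraries lie to the right at 1950 and 4996 CPM, where Dok3 is highest in each sorted group, while Lat in those libraries is no higher than in replicates 1 and 2.

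These adaptors are best known from lymphocytes and platelets, and markers of both were also higher in HS3A8-low. The 14 T cell markers summed to 0.602 to 8.40 CPM in HS3A8-high, 71.4 to 121.8 CPM in HS3A8-low and 18.4 to 48.1 CPM in the control. Tcf7 and Trbc1 carried this sum in HS3A8-low and the control. In HS3A8-high replicate 3, which had 8.40 CPM, they were at 0.727 and 0.794 CPM. Of the 10 T cell markers that were tested, 2 passed, beside 3.82% of all genes. These 10 met the filter on low counts mainly through HS3A8-low libraries. That all 10 were lower in HS3A8-high is therefore not a separate result. Cd4 was at 0 in all 6 sorted libraries and Trac was at 0 in HS3A8-high and at 0.117 to 0.351 CPM in HS3A8-low. Cd3e, of the T cell receptor complex, was at 0 to 0.992 CPM in HS3A8-high and 0.936 to 1.69 CPM in HS3A8-low. The 6 NK cell markers summed to 3.76 to 30.8 CPM in HS3A8-high, 104.6 to 138.4 CPM in HS3A8-low and 35.8 to 72.3 CPM in the control. Nkg7 was most of this sum. All 6 were tested and 2 passed, beside 3.82% of all genes. The lineage stain of the sort, which removes mature cells, included antibodies to CD3, CD4 and CD8 (T cells), B220 (B cells) and CD11b and Gr-1 (myeloid cells). B cell markers summed to 1.35 to 5.22 CPM in HS3A8-high, 10.1 to 13.6 CPM in HS3A8-low and 4.14 to 10.4 CPM in the control, with Pax5 and Ms4a1 at 0 throughout. Mast cell and basophil markers summed to between 83.8 and 240.5 CPM in the 9 libraries, with Tpsb2 at 0 and Il1rl1 the main part of the sum in most libraries. Il1rl1 overlapped between the fractions, at 82.2 to 97.5 CPM in HS3A8-high and 72.9 to 82.4 CPM in HS3A8-low. Cpa3, a mast cell protease on that list, was at 0.314 to 4.43 CPM in HS3A8-high, 17.5 to 23.0 CPM in HS3A8-low and 6.16 to 8.37 CPM in the control. Mcpt8 and Prss34 were at 18.5 and 39.7 CPM in HS3A8-high replicate 3 and 34.2 and 74.7 CPM in HS3A8-low replicate 3. In the other sorted libraries they were at 0 to 0.211 CPM. Of the 4 markers of this list that were tested, 3 were lower in HS3A8-high and 0 passed, beside 3.82% of all genes. For the scarce markers of this list the filter limits the direction as for the T cell markers.

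The 12 megakaryocyte markers summed to 74.5 to 110.7 CPM in HS3A8-high, 210.7 to 386.7 CPM in HS3A8-low and 163.8 to 292.3 CPM in the control. Of the 9 that were tested, 3 passed, beside 3.82% of all genes, and the median log2 difference of HS3A8-high over HS3A8-low was -2.97. Itga2b, the integrin subunit that platelets use to bind fibrinogen, was at 4.29 to 7.97 CPM in HS3A8-high and 67.5 to 125.2 CPM in HS3A8-low. Gp1ba and Gp5, of the platelet receptor for von Willebrand factor, overlapped between the fractions, at 8.20 to 14.9 and 39.0 to 55.3 CPM in HS3A8-high and 7.81 to 13.6 and 41.8 to 57.8 CPM in HS3A8-low. Gp6, the collagen receptor above LAT and SLP-76 in platelets, was at 0 in HS3A8-high and HS3A8-low replicates 2 and 3 and at 0.234 CPM in HS3A8-low replicate 1. The part of these cell types in the levels of the 10 genes was not tested.

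Against the MPB49 control, most of the 10 transcripts were lower in HS3A8-high and higher in HS3A8-low. HS3A8-high over control had a log2 difference of -1.98 ± 0.332 for Lat, -1.20 ± 0.443 for Lcp2, -2.45 ± 0.332 for Dok2, -2.83 ± 0.573 for Sla2, -0.60 ± 0.130 for Rasal3 and -2.18 ± 0.287 for Pik3ip1. For these 6 genes every HS3A8-high library lay below every control library, as it did for 7.49% of all genes. HS3A8-low over control was 0.97 ± 0.294 for Lat, 1.16 ± 0.223 for Lcp2, 1.67 ± 0.295 for Sla, 1.63 ± 0.289 for Sla2, 0.48 ± 0.149 for Rasal3 and 0.75 ± 0.211 for Pik3ip1, the 6 genes for which every HS3A8-low library lay above every control library (7.85% of all genes). Both comparisons use the same control libraries, so they are set side by side and not combined.

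No member passed an adjusted p of 0.05 in edgeR in either control comparison. Of the 10, 6 had an unadjusted p under 0.05 with lower levels in HS3A8-high and 7 with higher levels in HS3A8-low, and DESeq2 called 5 and 3. Of all genes, edgeR called 2 of 11486 (0.0174%) and 0 of 11878 (0%), with 562 (4.89%) and 673 (5.67%) at an unadjusted p under 0.05, and DESeq2 called 140 (0.986%) and 93 (0.672%). The 3 control libraries were spread widely for Lat and Dok2, with replicate 1 of the control highest for both.

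**Figure D4:**
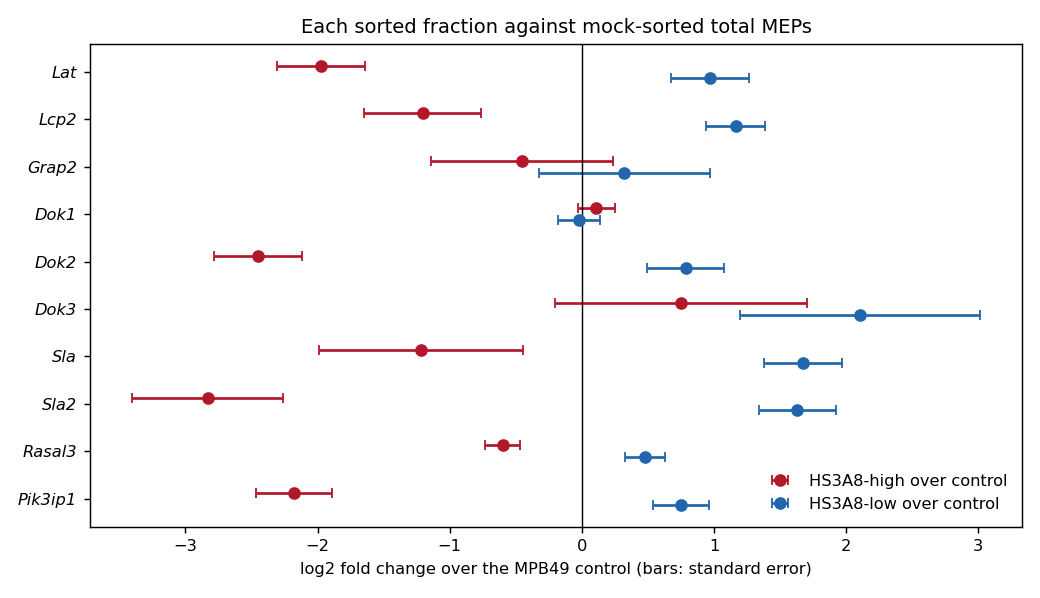
Log2 fold change of HS3A8-high and of HS3A8-low over the MPB49 control (x axis) for the 10 genes (y axis), with the standard error as the bar. For Lat, Lcp2, Dok2, Sla, Sla2, Rasal3 and Pik3ip1 the fractions lie on opposite sides of 0, whereas both values of Dok1 and Grap2 lie within 1 standard error of 0 and both values of Dok3 lie above it.

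The level in mock-sorted MEPs was set beside the midpoint of the sorted fractions, since each fraction took 50% of the cells. The control mean was 0.908 of that midpoint for Lat, 0.978 for Rasal3, 1.05 for Dok2, 1.05 for Pik3ip1, 0.974 for Dok1 and 1.03 for Grap2. Lcp2 was at 0.749, Sla2 at 0.618, Sla at 0.552 and Dok3 at 0.334 of the midpoint. All 3 control libraries of these last 4 genes lay below the midpoint, with a highest ratio of 0.874 for Lcp2. For Sla and Dok3, HS3A8-low replicate 3 was the highest library in the midpoint.

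Other genes of the same pathways were described from a list of 88, chosen by function but with earlier results of these data known. Of these, 77 were tested in HS3A8-high with HS3A8-low and 11 passed, 10 higher in HS3A8-low and 1 higher in HS3A8-high, beside 3.21% and 0.611% of all genes. Their median log2 difference was -0.52. With the replicate block 24 passed (23 higher in HS3A8-low), beside 11.6% of all genes, and without replicate 3 of both groups 22 passed. Without HS3A8-high replicate 1, HS3A8-high replicate 2, HS3A8-low replicate 1 or HS3A8-low replicate 2, 0 passed, and 4 passed without HS3A8-low replicate 3. The counts over all genes in these 5 fits were 42, 53, 56, 0 and 244, against 451 with every library.

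Kinases that act on these adaptors were among the genes higher in HS3A8-low, where 4 of 11 passed and 7 with the block. The shares of all genes were 3.82% and 11.6%. Lyn, a SRC family kinase, was at 34.1, 34.9 and 39.7 CPM in HS3A8-high and 56.9, 56.9 and 69.8 CPM in HS3A8-low, a log2 difference of -0.78 ± 0.127 (edgeR adjusted p = 0.0287). Matk, which encodes a kinase that restrains SRC kinases, was at 3.77, 3.84 and 7.01 CPM in HS3A8-high and 18.1, 19.9 and 25.2 CPM in HS3A8-low (-2.14 ± 0.307, edgeR adjusted p = 0.0251). Tec, of another kinase family, was also called. Syk, the kinase that phosphorylates LAT and SLP-76 in platelets, had a log2 difference of -0.99 ± 0.273 and passed with the block (edgeR adjusted p = 0.0186) but not without it. Csk, the kinase that switches SRC kinases off, had a log2 difference of 0.05 ± 0.130. Syk, Csk and the called genes outside the 5 with the smallest p were named after their values were seen.

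Effectors below LAT and SLP-76 were represented by 7 genes, of which 2 passed and 4 with the block, beside 3.82% and 11.6% of all genes. Plcg2, the phospholipase C gamma of platelets and B cells, was at 20.1, 16.2 and 27.0 CPM in HS3A8-high and 64.4, 46.0 and 61.0 CPM in HS3A8-low (-1.46 ± 0.223, edgeR adjusted p = 0.0257). Vav1, an exchange factor that binds SLP-76, was the other. Among 8 phosphatases 2 passed, and 3 with the block, beside the same shares of all genes. Ptprc, the CD45 phosphatase that activates SRC kinases, was at 39.9, 29.0 and 45.0 CPM in HS3A8-high and 81.8, 91.1 and 78.8 CPM in HS3A8-low (-1.17 ± 0.171, edgeR adjusted p = 0.0253). Ptpn22, a phosphatase that acts with CSK as a brake on SRC kinases, was at 4.08, 2.18 and 4.10 CPM in HS3A8-high and 14.5, 12.3 and 14.8 CPM in HS3A8-low (-2.03 ± 0.303, edgeR adjusted p = 0.0254).

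PI3K subunits included the only pathway gene that was called higher in HS3A8-high. Pik3r2, a regulatory subunit, was at 265.8, 252.2 and 240.2 CPM in HS3A8-high, 176.9, 187.1 and 161.5 CPM in HS3A8-low and 145.0, 192.5 and 208.9 CPM in the control (0.50 ± 0.0896, edgeR adjusted p = 0.0351). Pik3cd, a catalytic subunit of leukocytes, was called higher in HS3A8-low, and the other 7 of the 9 did not pass. With the block Pik3cg, another catalytic subunit of leukocytes, passed as well (edgeR adjusted p = 0.0370). Of 22 other adaptors tested, Lax1 passed, and 3 passed with the block, beside 3.82% and 11.6% of all genes. Their median log2 difference was -0.26, with 7 at or below -1. Lat2, a relative of Lat, had means of 3.79 CPM in HS3A8-high, 26.9 CPM in HS3A8-low and 16.2 CPM in the control. Its log2 difference was -2.85 ± 0.612, and it passed with the block (edgeR adjusted p = 0.0062) but not without it (edgeR adjusted p = 0.0557). None of the 13 tested RAS activators and GTPase-activating proteins passed in edgeR without the block, and none of the 4 CBL and UBASH regulators did (2 and 0 passed with the block). The 3 tested receptor chains that carry an activation motif, Fcer1g, Tyrobp and Cd247, had log2 differences from -2.19 to -2.10 and were not called without the block. With it Fcer1g and Tyrobp passed (edgeR adjusted p = 0.0223 for both). Without replicate 3 of both groups the log2 differences were -4.17 for Fcer1g, -4.50 for Tyrobp and -2.05 for Cd247. The sorted fractions overlapped for Fcer1g and Tyrobp and not for Cd247. With a library left out the log2 difference ran from -5.48 to -0.80 for Fcer1g and from -6.60 to -0.02 for Tyrobp. For Cd247 it ran from -3.17 to -1.72. The DOK relatives Dok4, Dok5, Dok6 and Dok7 had too few counts to be tested.

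In the control comparisons 0 of the tested pathway genes passed in edgeR, of 68 and 75. There were 6 and 17 with an unadjusted p under 0.05, and DESeq2 called 1 and 2. The median log2 difference was 0.10 for HS3A8-high over control and 0.38 for HS3A8-low over control.

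**Figure D5:**
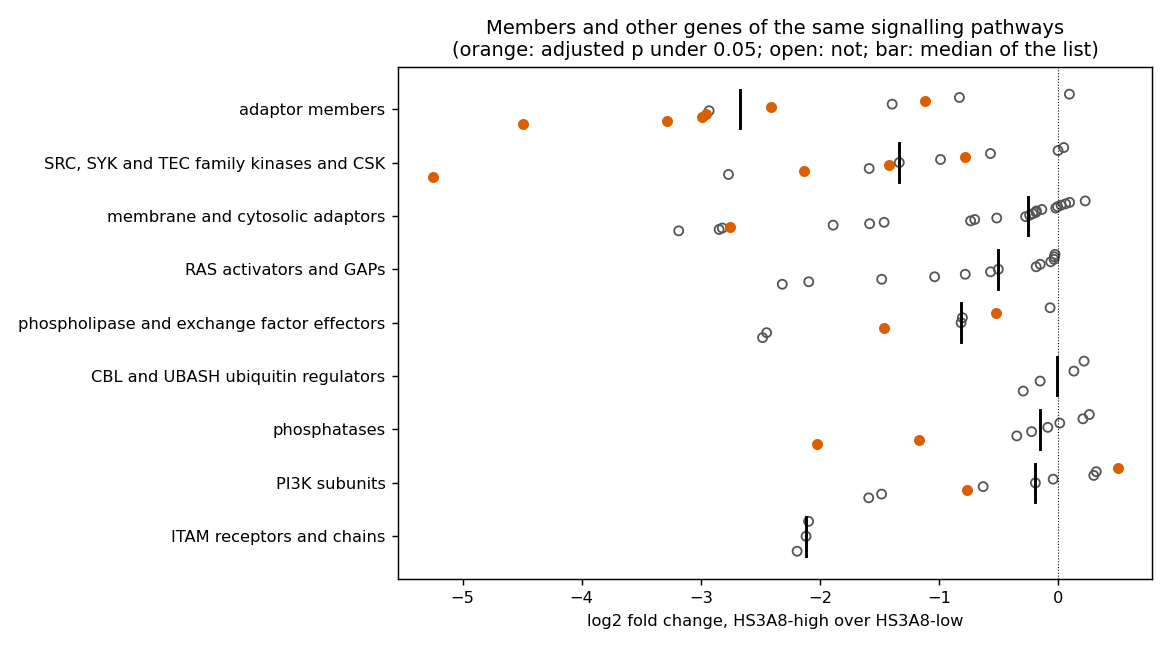
Log2 fold change of HS3A8-high over HS3A8-low (x axis) for the 10 members in the top row and the tested pathway genes below, grouped by role. Filled orange points passed an adjusted p of 0.05 in edgeR, open points did not, and the bar is the median of a row. In the top row 6 points are filled and the median is -2.67. The other adaptors have a median of -0.26, with 7 of 22 at or below -1, and all CBL and UBASH regulators sit near 0.

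The genes with the most similar pattern were sought among the 9332 genes whose mean was 5 CPM or more, by Pearson's r of log2 CPM over the 9 libraries. These r are descriptions, since all points share the 3 groups and the difference between the groups enters every r. The nearest gene was Sox4 for Lat (r = 0.978), Spns3 for Lcp2 (0.990), Slc18a2 for Dok2 (0.997), Cd93 for Sla (0.989), Lxn for Sla2 (0.987), Smim14 for Rasal3 (0.977) and Fgf3 for Pik3ip1 (0.985). The second nearest to Rasal3 was Lat (0.976). Dok3 was nearest to Slfn2 (0.984) and then to Prtn3 (0.971), a neutrophil protease on the granulocyte list. The second nearest to Sla2 was Tcf7 (0.981) and the third nearest to Dok2 was Trbc1 (0.989), both on the T cell list, while the third nearest to Pik3ip1 was Itga2b (0.973). Dok1 was nearest to Vopp1 (0.974) and Grap2 to Ppp1r12c (0.953), whose means were 85.0 CPM in HS3A8-high and 91.1 CPM in HS3A8-low.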

How the data were processed

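The authors made bulk RNA-seq libraries from sorted MEPs, and the deposited table holds unnormalized counts of reads per gene, with 1 column for each of 9 libraries and no pooling. Per the labels, STAR 2.5, HTSeq 0.6.1 and mm10 were used. The annotation release and the strand setting are not given in the sources used here. Symbols and coordinates come from GENCODE release M21 (GRCm38, which is mm10).

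Counts were tested in R 4.3.3 with the quasi-likelihood test of edgeR 4.0.16 (TMM, filterByExpr, Benjamini-Hochberg adjustment over all genes tested, adjusted p under 0.05), with the 2 groups compared in each fit and no block. CPM are TMM-scaled over the 9 libraries. SE is the log2 fold change divided by the square root of F. The scripts were tested on simulated data. Library totals of 11781637 to 15850037 counts limit the precision, and counting intervals cover counting error only. A count of 0 was taken to allow 3 counts.

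Whether replicate numbers pair the libraries was checked by correlating each library's deviations from its group mean over 12108 genes. For HS3A8-high with HS3A8-low, r was 0.325 to 0.509 where the numbers matched and -0.469 to 0.123 where they did not, so the numbers were taken to pair these fractions. That rests on the counts and not on the labels. For control libraries with a matching number r was -0.345 to 0.0312.

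The members and lists were chosen with earlier results of these data known. Named are all 10 members, of the pathway genes past the threshold the 5 with the smallest p in each direction, of the 3 genes with the highest r to each member (prior count of 2) the nearest and those on a marker list or among the members, and markers that carry a sum or are at 0. The markers Cd3e, Cpa3, Mcpt8, Prss34, Itga2b, Gp1ba and Gp5, and pathway genes outside this rule, were named after their values were seen. Alternatives were the DESeq2 1.42.0 test, DESeq2 size factors, omission of the filter, a minimum mean count of 10, the replicate block, all 9 libraries in 1 fit, each library left out, replicate 3 of both groups left out, and CPM by library total. Values of 1 called pathway gene are not reported here singly.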

Additional observations from a re-analysis of the deposited data

How the results depend on the processing

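In HS3A8-high with HS3A8-low, the 451 genes past the threshold became 1224 with the DESeq2 test, 1367 with the replicate block and 748 without replicate 3 of both groups, and ran from 0 to 439 with a library left out. The 6 members became 7 with the replicate block, and 0 to 7 with a library left out. The 11 pathway genes became 17 with DESeq2, 24 with the replicate block, 6 with all 9 libraries in 1 fit and 22 without replicate 3 of both groups, and ran from 0 to 15 with a library left out. The paired fit of HS3A8-high with HS3A8-low, with the replicate number as a block, added the call of Sla and changed no call of another member. Control numbers share only a number with those of the sorted fractions, and the block in HS3A8-high over control took the 2 genes past the threshold to 0. That count was 140 with DESeq2, 9 with no count filter, 32 with all 9 libraries in 1 fit, 0 without replicate 3 of both groups and 0 to 5 with a library left out. There the members called were 5 with DESeq2 and 3 with all 9 libraries in 1 fit, against 0, and the pathway genes 1 with DESeq2. In HS3A8-low over control DESeq2 called 93 genes, 3 members and 2 pathway genes, against 0 each. The summed level of the members in HS3A8-low was 420.4 CPM by library total and 402.0 CPM by TMM.

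Directions turned for 3 members, each with overlapping groups. In HS3A8-high over HS3A8-low, the log2 difference of Dok3 was 0.27 without HS3A8-low replicate 3 and ran from -3.38 to 0.27 with a library left out. In HS3A8-high over control that of Dok3 was -0.0879 with the replicate block and -0.91 without replicate 3 of both groups, and ran from -1.26 (without HS3A8-high replicate 3) to 1.22 with a library left out, while Grap2 ran from -0.88 to 0.21 (without MPB49 control replicate 1). In HS3A8-low over control Grap2 ran from -0.00625 (without MPB49 control replicate 3) to 1.001. There Dok1 was at 0.0037 without replicate 3 of both groups, at 0.04 without MPB49 control replicate 2, and ran from -0.0739 to 0.0763 (without HS3A8-low replicate 3). The cause was not tested. Counted over members and alternatives, 354 log2 differences kept their direction and side of the threshold, 15 gained a call, 12 lost one and 9 turned. Depth limits Grap2 and Sla2 in HS3A8-high most, with 2 to 24 counts a library.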
